A study of Mus musculus with 12 samples.

Results

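The eYFP- β cells of neonatal and adult mice were compared to ask how their DNA methylation changed after birth. These were 6 of the 12 libraries of the series, 2 from postnatal day 2 (P2) and 4 from day 60 (P60), chosen by their labels and not by any measured value. All animals carried Myt1cCre, Ngn3nCre, Rosa26eYFP and InsApple. The 2 Cre fragments form an active recombinase only in endocrine progenitors that make both Myt1 and Neurog3, so the descendants of such M+N+ cells are permanently eYFP+, while Apple, driven from the insulin gene, marks β cells. The eYFP- cells studied here are the Apple+ β cells without that mark, ascribed to M-N+ progenitors. Cells in which recombination failed would also be eYFP-. No treatment was given. Each library combined several sorts of several mice of 1 labelled sex, so a library is a pool of animals. The labels give the marker as eGFP and the cell type as all islet cells, while the study's text describes sorted β cells.

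In mammals DNA methylation lies mostly on the cytosine of CpG pairs and covers most of the genome. Hypomethylated regions (HMRs), stretches where most reads are unmethylated, mark active or poised promoters and enhancers, in the cells where they occur. DNMT enzymes add the methyl group and TET enzymes begin its removal. β cells are born immature, divide in the neonatal period, and then acquire glucose-coupled insulin secretion while many fetal genes are silenced.

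Methylated and unmethylated read counts per CpG were deposited as 1 pool for each stage and subtype, and only HMR positions were deposited for each library. The P2 eYFP- pool held 506036323 reads over autosomal CpGs (mean 25.2 per CpG) and the P60 pool 923333281 (mean 45.7). A methylation level is the percent of these reads that are methylated, and each interval is a 95% Wilson interval, which covers counting error only. PCR reads are not independent molecules, so even that error may be understated. Counts exist for 1 pool per stage, so the intervals hold no spread between mice or libraries. Tests on pooled reads therefore compare 2 pools, not mice. The file prefixes put both P2 libraries in 1 sequencing submission and the P60 libraries in 2 others, so stage and submission cannot be told apart. The X chromosome went against the sex labels at P2. Of 254 X HMRs found in every P60 male library and in no P60 female library, the P2 library labelled female held 92.5% and the one labelled male 13.4%. Only autosomes were used below.

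Stretches of 7 loci show where the results lie in the genome. They are the plus strand of mm39, 5′ to 3′, with every CpG in capitals. Antxr1 and Snx5 had the largest gains and Rora and Fam78a the largest losses among HMRs named by the rule given in the processing notes. Insm1 and Prlr are HMRs near genes of β-cell identity and maturation, and Ffar1 is the coding part of the 1 promoter window that fell among those gene lists. HMRs over 300 bases are shown by the 300 with the most CpGs.
Antxr1: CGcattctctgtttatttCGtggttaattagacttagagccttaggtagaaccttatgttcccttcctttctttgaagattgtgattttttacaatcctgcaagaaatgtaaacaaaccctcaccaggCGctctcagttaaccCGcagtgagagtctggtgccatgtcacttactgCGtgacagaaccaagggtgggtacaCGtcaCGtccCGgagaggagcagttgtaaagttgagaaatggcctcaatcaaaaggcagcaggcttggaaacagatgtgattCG
Snx5: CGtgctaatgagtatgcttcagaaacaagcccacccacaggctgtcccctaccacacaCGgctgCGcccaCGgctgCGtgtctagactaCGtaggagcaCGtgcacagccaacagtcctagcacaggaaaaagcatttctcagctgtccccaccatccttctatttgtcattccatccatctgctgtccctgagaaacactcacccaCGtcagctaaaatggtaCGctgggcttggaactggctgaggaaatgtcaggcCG
Rora: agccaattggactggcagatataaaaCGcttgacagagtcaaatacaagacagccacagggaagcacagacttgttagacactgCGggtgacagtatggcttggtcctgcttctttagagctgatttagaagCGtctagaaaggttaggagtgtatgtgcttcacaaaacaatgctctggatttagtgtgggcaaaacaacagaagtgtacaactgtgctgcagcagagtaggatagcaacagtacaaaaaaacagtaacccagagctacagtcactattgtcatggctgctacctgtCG
Fam78a: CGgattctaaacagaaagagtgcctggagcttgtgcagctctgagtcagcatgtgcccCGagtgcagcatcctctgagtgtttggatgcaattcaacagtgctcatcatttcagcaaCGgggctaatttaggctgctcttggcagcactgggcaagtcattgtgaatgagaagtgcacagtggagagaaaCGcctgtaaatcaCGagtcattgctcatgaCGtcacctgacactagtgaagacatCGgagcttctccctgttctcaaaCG
Insm1: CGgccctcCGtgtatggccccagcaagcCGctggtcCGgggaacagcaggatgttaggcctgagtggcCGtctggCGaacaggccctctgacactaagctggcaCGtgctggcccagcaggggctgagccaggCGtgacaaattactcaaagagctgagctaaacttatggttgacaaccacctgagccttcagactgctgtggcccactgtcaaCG
Prlr: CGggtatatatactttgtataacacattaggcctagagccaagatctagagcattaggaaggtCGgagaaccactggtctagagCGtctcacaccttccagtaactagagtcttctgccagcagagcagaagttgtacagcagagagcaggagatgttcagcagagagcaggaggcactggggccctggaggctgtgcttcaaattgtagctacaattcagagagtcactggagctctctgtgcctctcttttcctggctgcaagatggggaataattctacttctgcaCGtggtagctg
Ffar1: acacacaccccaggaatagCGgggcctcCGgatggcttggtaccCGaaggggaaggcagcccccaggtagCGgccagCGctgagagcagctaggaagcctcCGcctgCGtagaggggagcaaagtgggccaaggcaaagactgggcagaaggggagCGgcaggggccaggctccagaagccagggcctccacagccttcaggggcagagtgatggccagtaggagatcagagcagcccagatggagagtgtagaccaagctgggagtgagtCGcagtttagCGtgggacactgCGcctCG

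The Antxr1 stretch (chr6:87213015-87213299) lies in an intron of Antxr1, 99646 bp after its start. All 9 of its CpGs were more methylated at P60, from 4.17% to 32% at P2 against 72.9% to 93.1% at P60. The Snx5 stretch (chr2:144133902-144134162) is intergenic, and its 10 CpGs ranged from 4.35% to 25% at P2 and from 55.2% to 95.2% at P60. The 2 stages did not overlap at any CpG of these stretches, which were chosen for the largest gains on the same reads. The Rora stretch (chr9:68468098-68468397) moved the other way at each of its 4 CpGs, from 63.2% to 95.8% down to 10.2% to 24%. In Fam78a (chr2:31928751-31929020, an intron of Nup214) the 8 CpGs went from 30.4% to 74.1% at P2 to 4.48% to 19.7% at P60.

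The stretches near listed genes had the same form. The Insm1 stretch (chr2:146104237-146104453) lies in an intron of Ralgapa2, and 8 of its 9 CpGs had reads in both pools, all 8 higher at P60. In Prlr (chr15:10179802-10180101, an intron) the first 3 CpGs fell from 68.6%, 78.8% and 86.7% to 21.3%, 17.4% and 28.8%, while the last was 10.5% at P2 and 1.69% at P60. All 12 CpGs of the Ffar1 stretch (chr7:30560515-30560814, the gene being on the minus strand) were lower at P60, by 29.0 to 55.0 percentage points. The reads behind 1 CpG number between 14 and 77 here, apart from the first Insm1 CpG with 0 at P2.

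Across the genome the eYFP- β cells gained methylation in HMRs between P2 and P60. The P2 and P60 HMRs merged into 78153 autosomal regions, of which 77076 had at least 3 CpGs and 30 reads in each pool. Methylation was higher at P60 in 9282 of them (12% of those tested) and lower in 454 (0.589%), called at an adjusted p under 0.05 and a difference of at least 20 points (2-sided Fisher's exact test on pooled reads, Benjamini-Hochberg over all regions). The median level of the higher HMRs went from 15.6% to 44.2%, and that of the lower ones from 36.9% to 11.3%. Over all HMRs tested it was 9.26% at P2 and 12.6% at P60. At P60, 2735 of the higher HMRs (29.5%) were methylated in at least 50% of their reads.

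The regions were drawn from HMR calls on the same reads, so part of each difference was built into the choice. Of the higher HMRs, 8500 were called as HMRs only in the P2 pool, and of the lower ones 411 only in the P60 pool. Regions taken from the HMRs of the eYFP+ pools, which these reads did not choose, gave 9216 higher and 327 lower. The members nearest the threshold differed by 20 and 19.9959 points on the higher side and by -20.03 and -19.92 on the lower side. The numbers follow the threshold: 3681 HMRs gained and 102 lost at least 30 points.

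**Figure D1:**
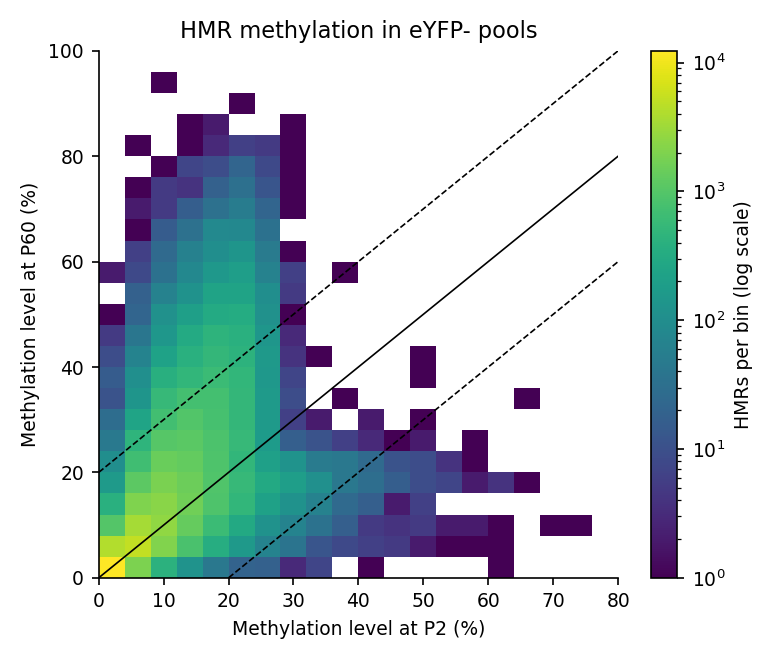
Number of eYFP- HMRs (colour, log scale) by methylation level at P2 (horizontal axis, percent) and at P60 (vertical axis, percent). The solid line marks equal levels and the dashed lines a difference of 20 points, with the 9282 higher HMRs above the upper dashed line and the 454 lower ones below the other.

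The rest of the genome moved little in its central values, though single windows varied. Outside HMRs the level was 76.9% at P2 and 77.3% at P60. In 23993 windows of 100 kb with HMRs left out, the median went from 76.8% to 76.5%. The median difference was -0.52 points, and 54.7% of the windows were lower at P60. The lower and upper deciles of the differences were -6.37 and 3.93 points. With that median difference subtracted from every HMR, 9657 were higher and 407 lower.

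Gains lay away from gene starts. Of 28204 intronic HMRs, 4889 (17.3%, interval 16.9 to 17.8) were higher at P60, and these made up 52.7% of all higher HMRs. Shares were 15.9% in exons, 11.5% in intergenic sequence and 1.80% (1.59 to 2.03) in the 14398 HMRs over a gene start. Losses were also rarest over gene starts, at 0.0972%, against 1.00% of exonic, 0.748% of intronic and 0.625% of intergenic HMRs. The share higher was 2.66% within 2 kb of a start, 11.4% at 2 to 10 kb and 15.9% at 50 to 100 kb. HMRs at 5 or more CpGs per 100 bases were higher in 6.66% of cases, against 13.9% at 2 to 3 CpGs. On single chromosomes the share higher ran from 10.4% on chromosome 3 to 13.1% on chromosome 4.

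The share called differed with the starting level, which the choice of regions partly sets. Of HMRs under 5% at P2, 1.20% were called higher, while 25.6% of those at 20 to 30% were. Of the 861 HMRs at 30% or more, 0.232% were higher and 42.9% lower. HMRs were chosen for a low level at 1 stage or the other, so these 2 shares are a description of that choice. Gene start HMRs had a median of 2.65% at P2 and intronic ones 11.0%, so class and starting level were not independent, and their separate parts were not tested.

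**Figure D2:**
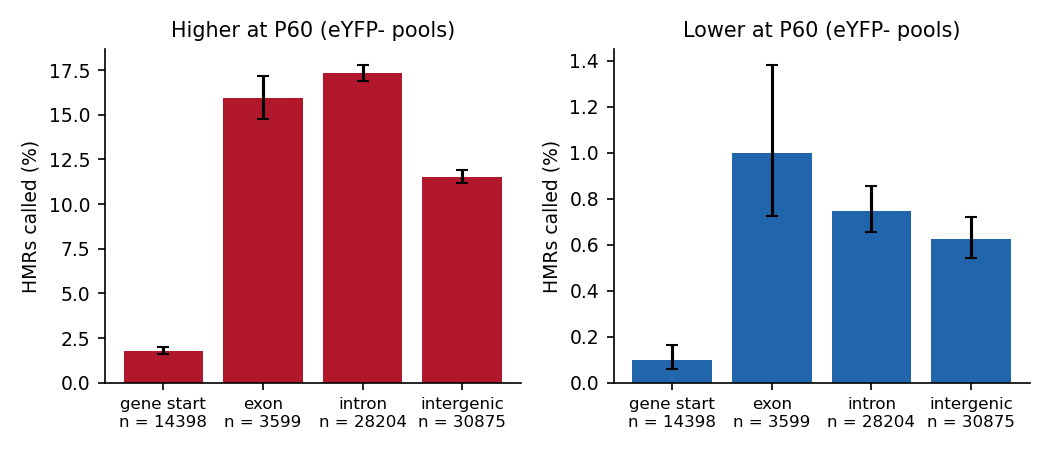
Share of HMRs (vertical axes, percent) called higher (left) and lower (right) at P60 in each annotation class, with 95% Wilson intervals as error bars and separate scales. Intronic HMRs have the largest share higher, 17.3%, and gene start HMRs the smallest, 1.80%.

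The gain was largest near the centre of the HMR, which the choice of regions partly fixed. Higher and lower HMRs were called by their level within the HMR, from these same reads. Away from gene starts, 9023 higher HMRs lined up on their centres had 16.2% methylation in the 100 bases next to the centre at P2 and 46.3% at P60. The gain reached past the HMR itself, with 59.7% and 72.3% at -450 bp and 69.0% and 73.1% at -1050 bp. About 4 kb upstream the levels were 69.2% and 70.7%. The 440 distal HMRs that were lower went from 40.7% to 15.4% at the centre, with 65.0% and 65.5% about 4 kb upstream. Their other flanking bins were mostly lower at P60, such as 65.9% and 62.0% at -3350 bp and 63.8% and 57.6% at 2750 bp.

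HMRs also became shorter. Of 51319 regions that were HMRs in both pools, 53.5% covered fewer bases at P60, 12.5% more and 34% as many, and the median length went from 619 to 503 bp. The median change per region was smaller, at -22 bp. Over gene starts the median length went from 1601 to 1488 bp, with a median change per region of -51 bp. The called HMRs were short, with a median of 377 bp for the higher and 284 bp for the lower ones against 508 bp for all. The P60 pool had more reads, and the part of depth in the lengths was not tested.

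**Figure D3:**
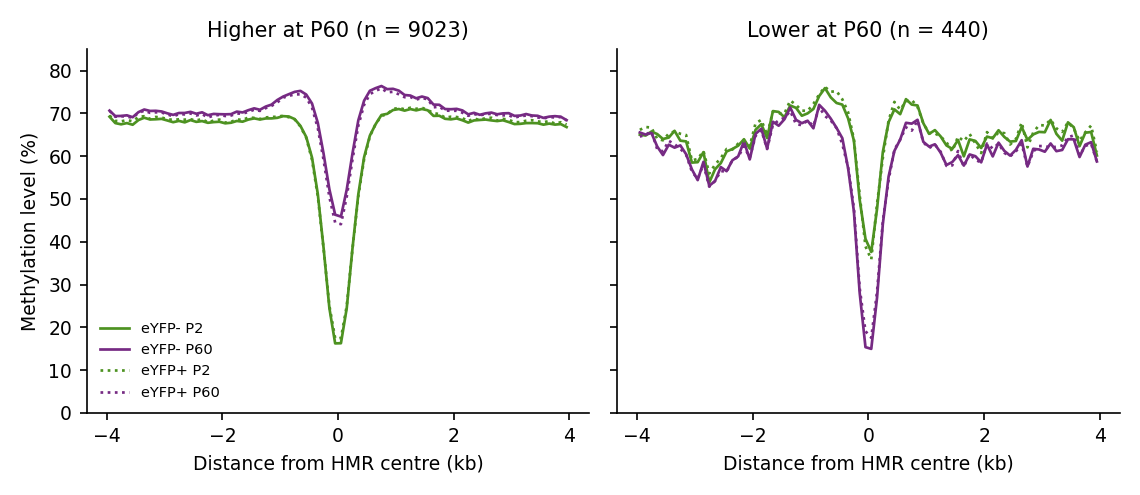
Methylation level (vertical axis, percent) against distance from the HMR centre (horizontal axis, kb) for distal HMRs called higher (left) and lower (right), with P2 and P60 in 2 colours, eYFP- pools as solid and eYFP+ pools as dotted lines. At the centre the higher HMRs stand at 16.2% at P2 and 46.3% at P60 in eYFP- cells, and the stages lie closer together in the flanks. The regions were chosen by their level within the HMR, which partly fixes this form.

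The largest gains supported by every library were in 6 HMRs. The rule asked for at least 8 CpGs, 10 reads per CpG, an HMR in both P2 libraries and none in the 4 P60 libraries, and 3391 higher HMRs met it. In the Antxr1 intron, a gene for a collagen-binding membrane receptor, the level went from 16.7% (12.2 to 22.4, 204 reads) to 84.1% (80.1 to 87.4, 383 reads; adjusted p = 7.35e-57, Fisher's exact test). The intergenic HMR 21147 bp before Snx5, a sorting nexin of endosomes, went from 15.3% (11.2 to 20.6) to 80.9% (77.5 to 83.9). An intronic HMR of Sorbs2, an adaptor of the actin cytoskeleton, went from 9.67% (6.93 to 13.3) to 75% (71 to 78.7). None of the intervals of the 2 stages overlapped, which follows from choosing the largest called differences on the same reads.

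Notch1, the receptor that holds back endocrine differentiation in the embryonic pancreas, had an intronic HMR 28770 bp after its start that went from 4.35% (2.22 to 8.34) to 68.4% (64.8 to 71.9). This was the lowest P2 level of the 6. An HMR in an intron of Auts2, whose nearest start was that of Galnt17 at 461161 bp, went from 19.9% to 83.6%. The intergenic HMR 98803 bp before Sdk2, a cell adhesion gene, went from 20.3% to 83.4%. In the eYFP+ pools the same 6 HMRs stood between 8.35% and 27.9% at P2 and between 69.1% and 81.8% at P60.

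The converse rule, an HMR in all 4 P60 libraries and in neither P2 library, was met by 45 lower HMRs. The largest loss lay 93123 bp before Rora, a nuclear receptor of the circadian clock, where 58.8% (52.7 to 64.6, 257 reads) became 12% (9.11 to 15.5, 393 reads; adjusted p = 6.67e-35, Fisher's exact test). The HMR in the Nup214 intron assigned to Fam78a went from 51.8% (45.6 to 57.9) to 8.28% (6.19 to 11.0). In Akap13, which anchors protein kinase A, an intronic HMR of 2136 bp with 25 CpGs went from 50% (46.2 to 53.8) to 12.7% (10.7 to 15). Tlcd4 (47.6% to 11.1%), Fam246a (43.9% to 8.13%) and St8sia1 (40% to 5.12%), which encodes the enzyme that makes ganglioside GD3, completed the list. At P60 these HMRs stood near the level of HMRs in general. The rule partly set this, as it asked for an HMR in all 4 P60 libraries.

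Genes were then followed in lists by role. An HMR was assigned to the protein-coding gene with the nearest start within 100 kb. Of 58902 assigned HMRs, 11.1% were higher and 0.526% lower. Of 16307 genes with an assigned HMR, 4170 (25.6%) had at least 1 higher and 296 (1.82%) at least 1 lower. Longer lists of HMRs give a gene more chances, so gene counts are read with HMR counts.

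Genes of glucose sensing and adult maturation carried most of the listed losses. Of their 195 HMRs, 10 (5.13%) were lower at P60 and 13 (6.67%) higher, and 7 of 28 genes (25%) had a lower HMR. Beside these stand 0.526% and 11.1% of all assigned HMRs and 1.82% of all genes with an assigned HMR. The losses were at Ucn3, Prlr, Glp1r, Ero1b, Abcc8, G6pc2 and Ppara, of which those beyond the 3 largest are named because of their values. Glp1r, the receptor of the incretin GLP-1, had an intronic HMR 5140 bp after its start that fell from 58.5% (52.1 to 64.7, 234 reads) to 18.8% (15.5 to 22.5, 479 reads; adjusted p = 3.10e-24, Fisher's exact test). No single library had an HMR there. Prlr, the prolactin receptor through which β cells respond to lactogens, had a loss 2731 bp after its start from 52% (44.6 to 59.3) to 11.9% (8.84 to 15.8). A further Prlr HMR, 48653 bp after the start, fell from 45.7% to 10.4%. At these HMRs 1 of the 4 P60 libraries and none of them, in that order, had a call of its own.

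Further losses lay at genes of the secretory response. Abcc8, the sulfonylurea receptor subunit of the KATP channel, fell from 41.6% (35.5 to 47.9) to 15% (12.5 to 17.9) in an intronic HMR 5054 bp after its start, which was an HMR in all 4 P60 and in neither P2 library. The HMR over the start of Ucn3, the peptide made by mature β cells, fell from 33.1% (29.6 to 36.9, 643 reads) to 6.31% (5.02 to 7.89, 1110 reads) and was an HMR in all 6 libraries. The HMR 19407 bp after the start of G6pc2, the glucose-6-phosphatase catalytic subunit of islets, fell from 33.5% to 11.7% and was called in 3 P60 libraries.

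Ero1b, which forms disulfide bonds in the endoplasmic reticulum, had 3 lower HMRs. The one with the most CpGs, 61964 bp after the start, fell from 44.7% (40.3 to 49.2) to 17.1% (14.7 to 19.8). Ppara, the fatty acid receptor, fell from 34.4% to 13.8% in an HMR 66858 bp before its start. The list did not move one way only. An HMR 42772 bp before Glp1r rose from 21.9% to 62.0%, though no single library had an HMR there. The HMR 8742 bp before Chga, the granule protein chromogranin A, rose from 19.6% to 57.9% and was called in 1 P2 library.

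At promoters, taken as 1000 bases before to 500 after each start, only Ffar1 was called among the 29 measured maturation genes. Ffar1, the receptor through which long-chain fatty acids raise insulin secretion, fell from 38.7% (35.7 to 41.8, 963 reads) to 11.9% (10.6 to 13.4, 2049 reads; adjusted p = 5.01e-58, Fisher's exact test). An HMR of 3729 bp over its start was present in all 6 libraries and stood at 28.2% at P2 and 8.54% at P60, a difference of -19.7 points. The median promoter level of the list was 16.8% at P2 and 12% at P60, while the median of the differences per promoter was 1.20 points. The Pcsk1 promoter, of the proinsulin convertase, stood at 35% and 23.7% and that of Slc2a2, the glucose transporter GLUT2, at 28.6% and 20.5%, both short of 20 points.

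Among β-cell identity factors and hormones, 31 of 199 HMRs (15.6%) were higher and 2 (1.01%) lower, and 13 of 24 genes (54.2%) had a higher HMR. Over all assigned HMRs the shares were 11.1% and 0.526%, and 25.6% of all genes with an assigned HMR had a higher one. Those genes had a median of 3 assigned HMRs, fewer than the genes of this list, so its gene share is raised by number alone. The largest gain was 40504 bp after the start of Insm1, a zinc-finger factor of endocrine differentiation, from 17.0% (12 to 23.4, 165 reads) to 77.7% (73.8 to 81.2, 485 reads; adjusted p = 3.54e-42, Fisher's exact test). Pax6, the paired-box factor of islet cells, rose from 19.9% to 76.6% in an intergenic HMR 56357 bp before its start. Foxa2, the pioneer factor of endoderm, rose from 22.1% (18.8 to 25.7) to 76.8% (74.2 to 79.3) 8489 bp after its start, and 5 of its 21 HMRs were higher. These 3 HMRs were called in both P2 libraries and in no P60 library.

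The 2 losses of the list lay near Iapp and Mafa. The HMR of 6039 bp over the Iapp start, of the amyloid peptide released with insulin, fell from 26.0% (23.4 to 28.8) to 5.19% (4.18 to 6.43). The HMR 36704 bp before Mafa, the factor that marks mature β cells, fell from 45.0% (39.8 to 50.3) to 17.5% (14.7 to 20.7). The Ins1 promoter stood at 25.4% (19.5 to 32.5, 169 reads) at P2 and 8.29% (5.31 to 12.7, 217 reads) at P60, a difference of -17.1 points that was under the threshold. The Ins1 window held an HMR in all 4 P60 libraries and in neither P2 library. The Ins2 promoter stood at 72.5% and 69.0%. These 2 windows hold 6 and 5 CpGs.

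Most identity promoters were unmethylated at both stages, with a list median of 3.33% at P2 and 5.12% at P60 and a median difference per promoter of 0.0818 points. The Pdx1, Nkx2-2, Isl1 and Mnx1 promoters were each under 1% at both stages. The 2 promoters that rose were those of the related zinc-finger factors Myt1 and St18. The Myt1 window went from 35% (30.7 to 39.7) to 57.8% (54.5 to 61.0), and the St18 window from 61.1% (55.8 to 66.2) to 87.9% (84.8 to 90.4). The HMR of 2268 bp over the Myt1 start, called in all 6 libraries, only went from 9.52% to 20.6% and did not pass. A further Myt1 HMR, 3667 bp after the start, stood at 0.619% and 1.49%. St18 HMRs 45825 bp before and 23287 bp after its start stood at 2.43% and 4.58% and at 0.714% and 1.24%. The levels at these genes thus depended on the stretch measured. The Myt1cCre allele carried by these mice lies in the Myt1 gene, and its part in the Myt1 value was not tested.

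Immature and fetal β-cell genes had 31 of 184 HMRs (16.8%) higher and 1 (0.543%) lower, and 13 of 23 genes (56.5%) had a higher HMR. Beside these stand 11.1% and 0.526% of all assigned HMRs and 25.6% of all genes with an assigned HMR. Dlk1, the imprinted inhibitor of Notch signalling, had 7 of 17 HMRs higher, the largest gain being from 12.1% (10.1 to 14.5) to 59.9% (57.6 to 62.1) 56267 bp after its start. Sox4, a progenitor factor, rose from 25.9% to 69.1% in an HMR 39162 bp before its start. The Igf2bp2 gene, of an RNA-binding protein of fetal growth, had 4 of 6 HMRs higher. No promoter of this list passed, and its median was 6.15% and 8.40%, with a median difference per promoter of 1.77 points.

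Disallowed genes, which β cells keep silent for normal secretion, had 16 of 109 HMRs (14.7%) higher and 0 lower. Of all assigned HMRs 11.1% were higher. Smad3, the TGF-β signal mediator, had 7 of 13 HMRs higher. The largest rose from 24.1% to 67.6%, in a region that was an HMR in no single library. The HMR assigned to Tst, a mitochondrial sulfur transferase, lay 3542 bp before its start, within the gene Mpst and over an annotated transcript start. This HMR rose from 19.3% (17.2 to 21.6) to 60.3% (58.6 to 61.9) over 56 CpGs. At the 0.526% of all assigned HMRs, fewer than 1 of 109 would be lower, so the 0 is not read as a difference.

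Cell cycle genes also had 16 of 109 HMRs (14.7%) higher and 0 lower, beside 11.1% and 0.526% of all assigned HMRs. The HMR 9810 bp before Cdkn1a, the inhibitor p21, rose from 18.6% (15.7 to 22.0) to 65.8% (63.2 to 68.3), and that of Bmi1, a Polycomb protein that represses Cdkn2a, from 12.3% to 54.9%. The Myc HMR 35213 bp before its start rose from 22.3% to 58.7%.

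Exocytosis and calcium entry genes had 13 of 162 HMRs (8.02%) higher and 1 lower, and DNA methylation enzymes 6 of 85 (7.06%) higher and 0 lower. Both shares were under the 11.1% of all assigned HMRs. Cplx2, a complexin that gates vesicle fusion, rose from 16.6% to 74.0%, Cacna1c, the L-type calcium channel pore, from 11.8% to 67.6% and Syt7, a calcium sensor of granules, from 22.8% to 66.6%, each being the largest gain of its gene. No single library had an HMR in the Cacna1c region, while those of Cplx2 and Syt7 were each called in 1 P2 library and no P60 library. Syt7 had 5 of the 13 higher HMRs of the exocytosis list and Cplx2 2. The 1 loss was in an intron of Rims2, an active zone scaffold, from 25.6% to 5.35%. Tet3, which oxidises methylcytosine, had 4 higher HMRs, the largest from 22.4% to 71.3%.

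**Figure D4:**
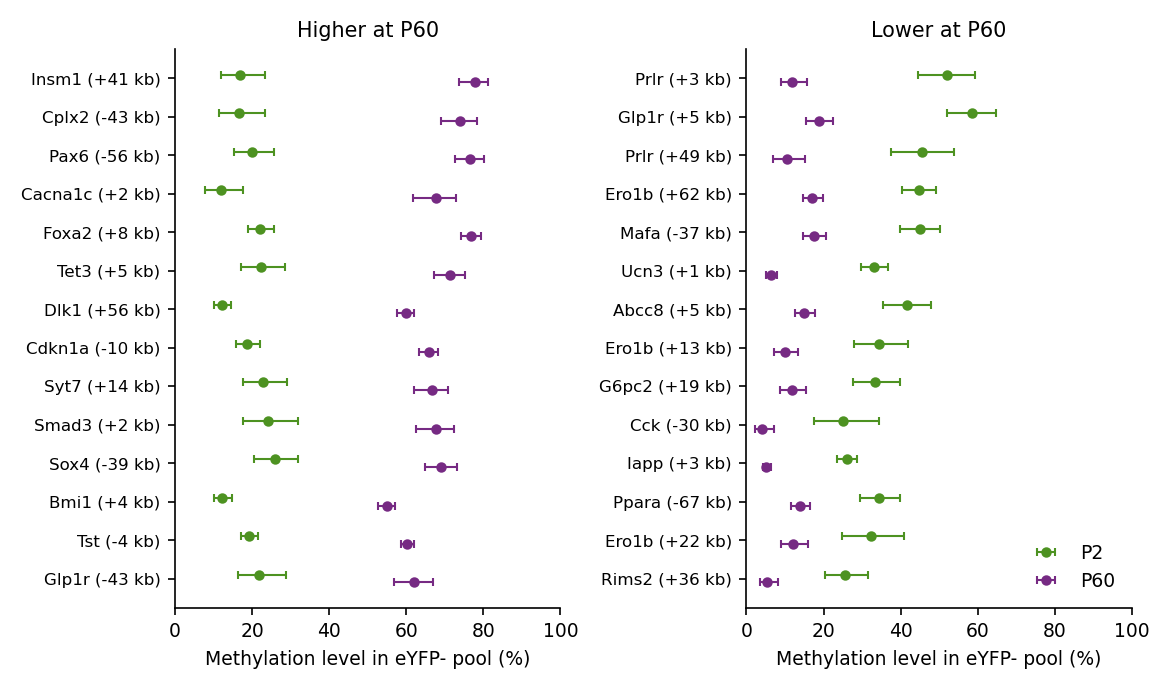
Methylation level (horizontal axes, percent) at P2 and P60 of single HMRs near listed genes, with 95% Wilson intervals and the distance to the gene start in kb beside each name. The left panel holds the 14 largest gains shown among the 3 leading HMRs of each list, from Insm1 at 17.0% and 77.7% downwards, and the right panel the 14 HMRs that fell, 10 of them near maturation genes.

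Promoters, which come from the annotation and not from these reads, changed far less often than HMRs. Of 19949 protein-coding promoters, 140 were higher (0.702%) and 70 lower (0.351%). None of the 4858 promoters with 5 or more CpGs per 100 bases passed at this threshold, and their median level was 3.02% at P2 and 3.23% at P60. In a window of 250 bases before to 50 after the start, 384 were higher and 20 lower. The split between higher and lower thus depended on the window.

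Of the called promoters, 132 higher and 8 lower held at least 8 CpGs. The largest gain was at Tkt, the transketolase of the pentose phosphate pathway, from 34.4% (28.5 to 40.8) to 79.0% (75.6 to 82.0). The Tmem154 promoter rose from 23.3% to 66.7% and that of Cnr1, a cannabinoid receptor, from 45.0% to 83.3%. Prox1, a homeobox factor of pancreatic progenitors, rose from 45.3% (42.8 to 47.8) to 83.4% (82.2 to 84.6) over 66 CpGs. Id2, an inhibitor of helix-loop-helix factors, rose from 35.7% to 71.1% and Klhl14 from 30.8% to 64.9%.

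Beside Ffar1, the lower promoters with 8 or more CpGs were led by Eif3j2, from 70.7% to 29.8%, Scgb1b7, from 86.9% to 53.7%, and Defa17, from 56.9% to 24.1%. These 3 belong to gene families with near copies, where reads can be placed on the wrong member, and are uncertain. Fam246a fell from 30.1% to 7.19% at its promoter, as its upstream HMR did, and Fcer1g, a signalling chain of immune Fc receptors, from 82.5% to 60.9%. Of all 70 lower promoters, 44 (62.9%) were of olfactory, vomeronasal or taste receptor genes, which are 6.39% of the promoters tested. Over all 1275 promoters of these receptor families the median level was 69.3% at P2 and 60.9% at P60. The lower promoters held a median of 4 CpGs, and with at least 5 CpGs and 100 reads in each pool 25 remained in the count.

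Promoters of marker genes of other cells were followed because a changing admixture of cells would reach the bulk levels. Fewer cells of a type and a lower level within them cannot be told apart in a pool. Of 10 β-cell marker promoters none was called, with levels of 0.923% to 79.9% at P2 and 0.773% to 83.2% at P60. Of the α, δ, PP, acinar, duct, endothelial, immune, stromal and Schwann cell lists, 2 promoters were called, both higher: Pyy, of peptide YY, from 50.8% to 72.8%, and Esam, an endothelial adhesion protein, from 20.7% to 47.2%. The median difference per promoter was 2.58 points in the acinar, -2.49 in the endothelial, 1.90 in the immune and -5.74 in the stromal list. Among HMRs assigned to these genes, 6 of 25 were higher in the PP list (24%), 5 of 22 in the endothelial list (22.7%, near 5 of 6 genes), 7 of 50 in the duct list (14%), 3 of 24 in the δ list (12.5%), 5 of 41 in the α list (12.2%), 3 of 47 in the acinar list (6.38%), 2 of 27 in the stromal list (7.41%), 1 of 17 in the Schwann list and 0 of 6 in the immune list, beside 11.1% of all assigned HMRs. The HMRs of β-cell markers were lower in 4 of 78 cases (5.13%) and higher in 4, beside 0.526% of all assigned HMRs lower. The β-cell markers share genes with the identity and maturation lists. The PP, acinar and duct lists had 1 lower HMR each. The part of other cells in the results was not tested.

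The libraries were compared in regions that they had not chosen. The eYFP+ pools gave 9861 HMRs higher and 528 lower at P60 by the same rule. The 2 eYFP- P2 libraries had an HMR in 55.6% and 55.0% of the 9861 regions, and the 4 P60 libraries in 4.27%, 4.95%, 3.06% and 4.23%. The stages did not overlap (55.3% ± 0.459, SD, n = 2, against 4.13% ± 0.783, SD, n = 4; difference -51.2 points; 2-sided exact permutation p = 0.0667, the smallest that 2 against 4 libraries allow). In the 528 regions the shares were 11.7% and 11.4% at P2 and 39.4%, 51.7%, 28.8% and 39.8% at P60. Here too the stages did not overlap (11.6% ± 0.268 against 39.9% ± 9.36, difference 28.4 points, exact permutation p = 0.0667). The design cannot pass 0.05 for either value.

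Libraries at P60 had fewer HMRs in general. In the 67172 regions not called in eYFP+ cells the P2 libraries covered 75.5% and 73.5% and the P60 libraries 60.7%, 68.0%, 53.7% and 63.6%. The P60 libraries held 37067 to 48399 autosomal HMRs and the P2 libraries 56446 and 58342. The lower share of P60 in this set was 13.0 points, beside 51.2 in the regions that gained methylation. The difference was -50.7 points with P60 replicates 1 and 2 alone and -51.6 with replicates 3 and 4, which came from separate submissions.

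**Figure D5:**
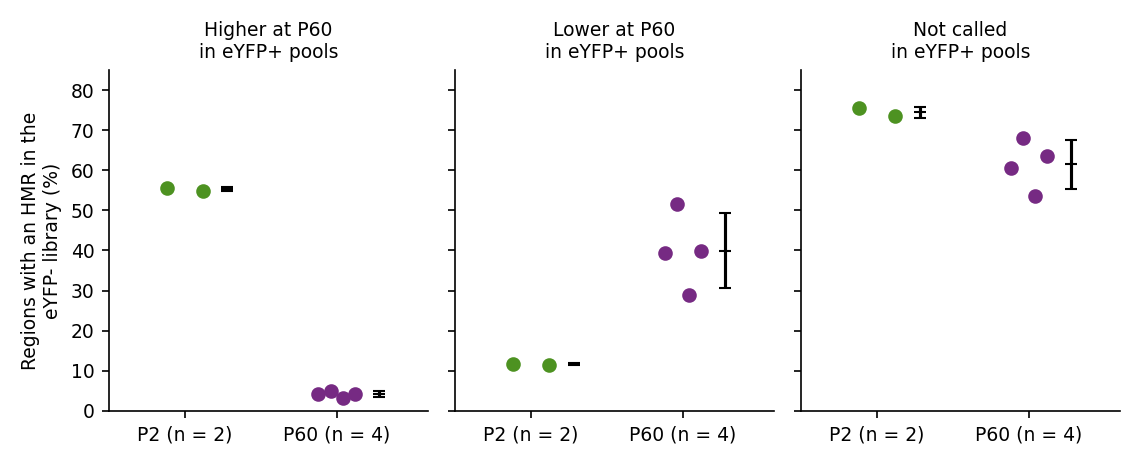
Share of regions (vertical axis, percent) in which each eYFP- library had an HMR, for regions called higher, lower and not called in the eYFP+ pools, with 1 point per library and the mean and SD as a bar beside them. In the higher regions the P2 libraries stand at 55.0% and 55.6% and the P60 libraries at 3.06% to 4.95%.

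Region by region, 7608 of the 68927 HMRs of the 6 libraries (11%) were in both P2 libraries and in no P60 library, and 164 (0.238%) in all 4 P60 libraries and in neither P2 library. Requiring more libraries makes the second count smaller by construction. Without P60 replicate 3, the library with the fewest HMRs, it was 435, without P2 replicate 1 it was 382 and without P2 replicate 2 it was 331. Without P2 replicate 2 the first count was 11796. Within P60, 1290 HMRs were in replicates 1 and 2 and not in 3 or 4, and 264 the reverse. Of the HMRs called from the pools, 4231 higher (45.6%) and 57 lower (12.6%) also separated every library.

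The eYFP+ cells of the same stages gave a separate set of reads. The HMRs higher in eYFP- cells had a median of 16.9% at P2 and 42.4% at P60 in eYFP+ cells, and 99.6% of them moved in the same direction, 71.3% by at least 20 points. The lower HMRs went from 35.5% to 14.7%, with 96.3% in the same direction and 52.0% by at least 20 points. Of all HMRs tested, 81.3% moved in the same direction in both subtypes. The 2 subtypes share the sequencing submission of their stage, and whether the same animals gave both is not stated in the labels. The change itself differed between the subtypes in 110 of 77001 HMRs (0.143%; z test of the log odds ratios, Benjamini-Hochberg adjusted p under 0.05 and at least 20 points). At an unadjusted p under 0.05 there were 9039. In 94.0% of HMRs the 2 changes lay within 10 points.

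Short sequence motifs were counted on both strands in 200 bp windows at HMR centres away from gene starts. The letters searched were TGTTTAC for FOXA, AGATAAG for GATA factors, GTTAATNAT for HNF1, ATTGATT for ONECUT factors, CAGATGG for NEUROD, TAATTA for homeobox factors, TGCTGAC for MAF, GTTGCCA for RFX, CAAGGTCA for ERR, TGANTCA for AP1, GGAATG for TEAD and TGACGTCA for CREB, and a window may hold several. The GATA letters stood in 5.40% (4.95 to 5.88) of the higher windows, 3.67% of all 62678 distal windows and 1.82% (0.924 to 3.55) of the lower ones. The ONECUT letters stood in 5.81% (5.34 to 6.31), 4.28% and 2.05% (1.08 to 3.84). The NEUROD letters were in 9.10%, 8.05% and 7.27%, and the TEAD letters in 11.6%, 10.6% and 7.73%. The FOXA letters were in 6.39%, 6.59% and 7.73%, and the interval of the lower windows (5.58 to 10.6) holds the other values.

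For the other motifs, homeobox letters stood in 9.02% of higher, 9.20% of all and 7.95% of lower distal windows, MAF letters in 5.44%, 5.41% and 5%, AP1 letters in 7.54%, 7.49% and 7.73%, RFX letters in 3.48%, 3.51% and 2.95%, HNF1 letters in 1.6%, 1.53% and 0.682% and ERR letters in 1.90% (1.63 to 2.20), 1.52% and 0.909%. Of these, the interval of the higher windows left out the share of all distal windows for ERR, as it did for GATA, ONECUT, NEUROD and TEAD. CREB letters were rare, in 0.233%, 0.308% and 0.909%, the last being 4 of 440 windows. Median GC was 48.5% in the higher, 46% in the lower and 48% in all distal windows. The printed stretches held FOXA letters at bases 109 to 115 and homeobox letters at 25 to 30 of Antxr1, NEUROD letters at 177 to 183 and TEAD letters at 169 to 174 of Snx5, AP1 letters at 42 to 48, MAF letters at 45 to 51 and CREB letters at 218 to 225 of Fam78a, and NEUROD letters at 238 to 244 of Ffar1, counted from 1 at the left end. The AP1 and MAF matches overlap, and the other printed stretches held none of these letters. The CpG of the Fam78a CREB match was methylated in 63.0% of 27 reads at P2 and 10.5% of 57 reads at P60.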

How the data were processed

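Sorted eYFP- β cells from P2 (2 libraries) and P60 (4 libraries) were assayed by tagmentation-based whole-genome bisulfite sequencing. The authors trimmed reads with Trim Galore 0.6.6 (cutadapt 1.16, FastQC), mapped them to mm39 with abismal, used SAMtools 1.5, and called methylation and HMRs with MethPipe, whose versions are not given in the sources used here. The deposited counts are methylated and unmethylated reads per CpG, merged over the libraries of each subtype and stage. The deposited files call the pools B1 and B2, and B1 was taken as eYFP- because, of the HMRs found in B1 and not in B2 at P2, eYFP- libraries held 24.0% to 27.2% and eYFP+ libraries 4.55% to 6.00%. The authors' subtype comparisons (regions and numbers of differing CpGs) were not used.

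Reads were summed over merged P2 and P60 eYFP- HMRs and over promoters of GENCODE genes. Regions with at least 3 CpGs and 30 reads per pool were tested by 2-sided Fisher's exact test with Benjamini-Hochberg adjustment (scipy 1.17.1, pandas 2.3.3, Python 3.11.15). Library shares were compared by exact permutation over 15 splits. The procedure was tested on simulated data. Named were the 6 largest per direction with at least 8 CpGs, 10 reads per CpG and library agreement (HMRs), the 6 largest promoters with 8 CpGs, and in each list the called promoters and the 3 genes with the largest HMR differences. Other genes named were chosen after their values were seen. The comparison, the gene lists and the motifs were chosen with earlier results of these data known. Alternatives were other thresholds, minima, windows, region sets and left-out libraries. Same-numbered libraries of the stages did not deviate together (correlations of -0.0256 and -0.0341), so no pairing was used. With 2 P2 libraries, each correlation recurs with the opposite sign for the other P2 library. Some results are not reported here.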

Additional observations from a re-analysis of the deposited data

Results flagged for a closer look

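The change from P2 to P60 differed between eYFP- and eYFP+ cells in 110 HMRs, by a z test of the difference itself on pooled reads. In 86 of them methylation rose more, or fell less, in eYFP- cells, with medians of 17.9% and 39.2% in eYFP- cells and 33.4% and 30.5% in eYFP+ cells. The regions are HMRs of the eYFP- pools, so a low eYFP- level at 1 stage is partly selected for and the split of 86 to 24 depends on that choice. In the other 24 the medians were 33.1% and 17.8% in eYFP- cells and 23.0% and 32.4% in eYFP+ cells. The smallest adjusted p (7.73e-09) was for an intergenic HMR 28570 bp before Cxcr4, the CXCL12 receptor, which went from 17.8% to 35.9% in eYFP- cells and from 37.6% to 32.1% in eYFP+ cells. Cxcr4 is named after its values were seen. The test compares pools and not mice, and its cause was not tested.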

How the results depend on the processing

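Alternatives were run for the counts of HMRs and promoters, the library shares, the HMRs that separate libraries and the difference between subtypes. In every setting higher HMRs and promoters outnumbered lower ones, and the library shares kept their sign. HMRs found only in the P2 libraries used outnumbered those found only in the P60 libraries. The subtype difference is a single count without a direction, and its split by direction was not recomputed. Gene lists, annotation classes, motifs, profiles and lengths had no alternatives. Counts followed the threshold: at 10 points 20609 HMRs were higher and 2298 lower, with 793 promoters higher and 553 lower, and at 30 points 3681, 102, 22 and 9. With library agreement required 4231 and 57 HMRs remained. Promoter windows of 250 bases before to 50 after gave 384 and 20, and of 2000 before to 500 after 64 and 41. With at least 5 CpGs and 100 reads 25 promoters were lower. Leaving out 1 library, HMRs in both P2 and no P60 libraries numbered 7889 to 11796, and those in all P60 and no P2 libraries 196 to 435. With P60 replicates 1 and 2 alone the latter was 793 and with 3 and 4 alone 318, and fewer libraries ask for less agreement. HMRs whose change differed between subtypes numbered 282 at 10 points and 178 with the HMRs of all 4 pools. Of the other 48 values, the counts lay within 1.5 times the main count and the library shares kept their sign. With this few libraries the exact permutation p of a share cannot fall under 0.05 in any setting, so it could not change side.

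The library shares differed by -51.5 to -50.8 points and by 24.4 to 32.1 points when 1 library was left out. With the replicate number as a replicate block they were -50.7 and 34, and that pairing rests only on shared numbers. Counts exist for 1 pool per stage, so the spread between mice is unknown for every level, and depth limits HMRs of few CpGs at P2.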

Other observations

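Some genes had many changed HMRs, and they are named here after their values were seen. Tox3, an HMG-box factor, had 10 of 23 assigned HMRs higher at P60, with medians of 12.7% at P2 and 37.7% at P60 over those 10 and a median difference of 11.3 points over all 23. Lmx1b, a LIM homeobox factor, had 10 of 27, going from 17.8% to 50.7% in those, with a median difference of 11.0 points over all 27. Hes1, the Notch target that represses Neurog3, had 8 of 21, from 19.5% to 57.0% in those 8 and by a median of 7.90 points over all 21. Meis2, a homeobox factor, had 8 of 16, from 17.0% to 52.3% in those 8 and by a median of 17.3 points over all 16. Cdh22, a cadherin, had 8 of 12 with a median difference of 25.7 points over all 12, and Zfpm1, a partner of GATA factors, 7 of 10 with 35.2 points over all 10.

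In the other direction, Il6ra, the interleukin 6 receptor, had 2 of 8 lower, from 52.7% to 20.7% in those (median difference over all 8 of -14.1 points), and Mrap2, an accessory protein of melanocortin receptors, 2 of 7, from 31.8% to 7.98% in those (-3.92 points over all 7).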
